A study of Mus musculus with 354 samples.

Results

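The cytosolic ribosomal protein genes were taken by name from the genes counted in each cell: names beginning with Rpl or Rps and a digit, together with *Rplp0*, *Rplp1*, *Rplp2* and *Rpsa*, without names that carry a hyphen and without the Rps6k kinases. This rule uses no measured value, and it gave 94 of 55367 genes, of which 55 belong to the large and 39 to the small subunit by name. A further 319 hyphenated names, which mark pseudogenes, were left out. The rule also took *Rps19bp1*, which encodes a protein that binds a ribosomal protein and is no part of the ribosome. In Gencode M21 93 of the names were found, all but *Rps23rg1*. Of those found, 7 were annotated as pseudogenes (*Rps4l*, *Rps12l1*, *Rpl6l*, *Rpl32l*, *Rpl37rt*, *Rps3a2* and *Rps3a3*).

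Ribosomal proteins assemble with ribosomal RNA into the large and the small subunit that together translate mRNA. Most are needed in equal numbers, so their genes are transcribed in all cells and their mRNAs are among the most abundant. Many of these mRNAs begin with a C and a run of pyrimidines, the 5′ terminal oligopyrimidine tract, through which mTOR and LARP1 control their translation. A few proteins have a paralog that can take their place, and mammalian genomes hold many processed copies of the rest.

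The cells were GFP+ cells sorted by fluorescence from the cochleae of mouse pups at P3, and each well of a plate gave 1 library. CA-ERBB2 pups carried TetON-CAERBB2, a constitutively active mutant of the receptor tyrosine kinase ERBB2, which the doxycycline-dependent activator of ROSA-floxed-rtTA/GFP turns on once Fgfr3-iCre has removed its stop. Control littermates had the Fgfr3-iCre transgene together with the ROSA-floxed-rtTA/GFP allele and lacked the mutant. Both received 75 mg/kg tamoxifen at P0 and P1 and 100 mg/kg doxycycline at P2. The Fgfr3 promoter drives recombination in a sparse set of supporting cells, mainly Deiters and pillar cells, and it can reach outer hair cells, and the cells of several pups were pooled. There were 177 cells of each genotype, on 3 plates of 59 wells, and the plate was the replicate. The labels do not say that the plates hold separate litters, so p-values measure the spread between plates.

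Counts summed to between 108357282 and 188636940 per plate, and the median cell had 2866362. The libraries did not stand alike. The median cell of CA-ERBB2 plate 1 had 10198 genes detected and that of Control plate 1 had 8679, while on the other plates it had between 1742 and 2954. Of the 35 cells under 100000 counts, 33 were on Control plates 2 and 3. *Erbb2* stood at 106, 46.0 and 120 CPM (counts per 1000000 of the plate's counts after scaling with TMM factors) on the CA-ERBB2 plates and at 19.8, 3.24 and 12.4 CPM on the Control plates, in the direction of the labels. All 9 supporting cell markers were detected on every plate, and summed to 1739–2778 CPM in CA-ERBB2 and to 1615–3729 CPM in Control. All listed markers of mesenchyme, macrophages, erythroid cells and endothelium were also detected on every plate, so detection alone does not mark supporting cells. The mesenchyme sum was higher than the supporting cell sum on each plate. The 5 erythroid markers, 4 globin genes and *Alas2*, summed to 24.4–473 CPM on the CA-ERBB2 plates and to 3472–7826 CPM on the Control plates, without overlap. Summed markers of mesenchyme (5070–8662 against 4874–9407 CPM), hair cells (169–504 against 213–1451 CPM), glia (308–778 against 180–1328 CPM), macrophages (42.8–611 against 380–1150 CPM) and endothelium (11.97–43.2 against 21.2–182 CPM) overlapped. The part of any of these in the results below was not tested.

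To show what the promoters of these genes look like, 30 bases of RefSeq sequence (GRCm38.p6) centred on the annotated start are given for 4 members, with the longest pyrimidine run in capitals. *Rpl4* (chr9:64173372-64173401, plus strand) and *Rps6* (chr4:86857353-86857382, minus strand) represent the standard proteins, and *Rpl22l1* (chr3:28805493-28805522, plus strand) and *Rpl7l1* (chr17:46782642-46782671, minus strand) are the paralogs described below.
Rpl4: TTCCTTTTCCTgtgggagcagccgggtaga
Rps6: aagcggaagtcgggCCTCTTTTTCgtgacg
Rpl22l1: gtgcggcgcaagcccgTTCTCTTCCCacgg
Rpl7l1: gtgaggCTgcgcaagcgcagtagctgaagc
The runs in the window comprised 11, 10, 10 and 2 bases, so *Rpl22l1* had a run as long as that of *Rps6* and *Rpl7l1* did not. The run of *Rpl4* opens the window and lies before the annotated start, so it is not part of the annotated mRNA and may extend further upstream. A run of at least 8 bases of C or T on the coding strand lay in this window in 29 of the 69 members with an annotated start (42.0%). The same held for 9 of 69 mitochondrial ribosomal protein genes (13.0%) and for 3760 of 27025 genes in all (13.9%). The match describes the letters of the annotated window, and 25 members had no start in the table.

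The first question was whether the cells with CA-ERBB2 devoted a different share of their mRNA to these genes. The median cell of the CA-ERBB2 plates 1, 2 and 3 had 3.97%, 5.91% and 7.54% of its counts on ribosomal protein genes. The median cell of the Control plates 1, 2 and 3 had 4.18%, 3.61% and 5.98%. CA-ERBB2 plate 3 was the highest and Control plate 2 the lowest, and the ranges of the genotypes overlapped. The means were 5.81 ± 1.79% and 4.59 ± 1.24% (SD, n = 3 plates each), and the difference of 1.22 percentage points did not exceed the spread between plates (two-sided exact permutation test, p = 0.5, where 3 plates against 3 cannot go below 0.1). It was 0.352 percentage points without CA-ERBB2 plate 3 and 2.14 without CA-ERBB2 plate 1.

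**Figure D1:**
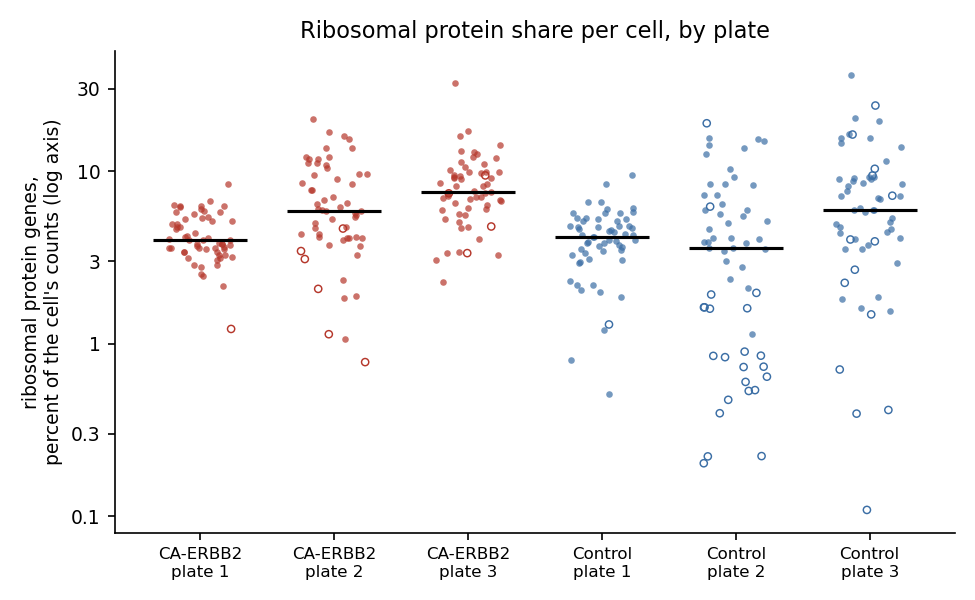
Percent of each cell's counts on ribosomal protein genes (log axis) on the 3 plates of each genotype; 1 point is 1 cell, open points are cells with less than 100000 counts or a mitochondrial share of at least 20%, and the bar is the plate's median. The medians lie between 3.61% and 7.54%, while single cells reach from 0.109% to 36.2%, and open points fill the lower part of Control plate 2.

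Cells differed far more than plates. On the plates numbered 1 the middle cells were close together, from 3.41% to 5.23% (quartiles, CA-ERBB2) and from 3.31% to 5.15% (Control). On Control plate 2 the quartiles stood at 1.02% and 6.34%. Of the cells at the extremes, the one with the lowest share (0.109%, Control plate 3) had 42373 counts and 57.2% mitochondrial counts. The one with the highest share (36.2%, Control plate 3) had 440983 counts but 460 genes detected. With the 49 cells left out that had less than 100000 counts or a mitochondrial share of at least 20%, the medians were 3.98%, 6.18% and 7.72% in CA-ERBB2 and 4.21%, 5.33% and 6.92% in Control. The difference between the genotype means then shrank from 1.22 to 0.474 percentage points (exact permutation test, p = 0.8). In these cells Spearman's rho of the share with the number of genes detected was below 0 on every plate, at −0.292, −0.474 and −0.456 on the CA-ERBB2 plates (n = 58, 53 and 55 cells) and −0.0723, −0.506 and −0.472 on the Control plates (n = 58, 36 and 45 cells). Over all cells it was 0.444 on Control plate 2, which held 23 of the cells under 100000 counts, and stayed below 0 on the other 5 plates. Both measures come from the same library, so these are descriptions. After thinning each cell to 100000 counts, the median cell had 83, 76.5 and 69.5 of the member genes detected on the CA-ERBB2 plates and 83, 81.5 and 77 on the Control plates (exact permutation test, p = 0.5).

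Large subunit genes took more counts than small subunit genes on every plate. The log2 ratio of their summed counts was 0.383, 0.270 and 0.304 on the CA-ERBB2 plates and 0.358, 0.316 and 0.206 on the Control plates. The means differed by 0.03 (0.32 ± 0.06 against 0.29 ± 0.08, SD, n = 3; exact permutation test, p = 0.7), which is less than the spread between plates. The sign of the difference turned when CA-ERBB2 plate 1 (−0.00621) or Control plate 3 (−0.0181) was left out.

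By mean counts, which favour long mRNAs, the highest members were *Rps14*, *Rpl32*, *Rpl4*, *Rpl7* and *Rps24*, at 2178, 2066, 1947, 1855 and 1570 CPM over the 6 plates. Per kilobase of coding sequence the order was another, and *Rpl41*, whose product is the smallest protein of the ribosome, stood first at 15189 CPM per kilobase, followed by *Rpl32* at 5065. Reads were counted on whole exons, so this measure raises genes whose coding sequence is a small part of the mRNA. *Rpl41* has 78 coding bases in a transcript of 582, and *Rpl32* 408 in one of 906. The order is therefore not one per length of mRNA. *Rpl4*, with the long coding sequence of 1260 bases, had 1545 CPM per kilobase. *Rps14*, a small subunit protein whose loss impairs erythropoiesis, stood at 871, 3528 and 2860 CPM on the CA-ERBB2 plates and at 853, 2057 and 2898 CPM on the Control plates. The plates numbered 1 were the lowest of each genotype, at nearly the same level, and the others overlapped (log2 fold change 0.32 ± 0.65 SE, edgeR adjusted p = 0.975).

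The P-stalk proteins recruit elongation factors to the large subunit. *Rplp0* stood at 986, 1410 and 2114 CPM in CA-ERBB2 and at 882, 1330 and 1409 CPM in Control, *Rplp1* had a log2 fold change of 0.78 ± 0.62 (SE) and *Rplp2* one of 0.75 ± 0.59. *Rpl5* and *Rpl11* bind the 5S ribosomal RNA and, when ribosome assembly is disturbed, the p53 ligase MDM2. *Rpl5* measured 261, 742 and 998 CPM in CA-ERBB2 and 252, 321 and 603 CPM in Control, and *Rpl11* 471, 1224 and 1216 CPM against 442, 692 and 791 CPM. In both, CA-ERBB2 plates 2 and 3 stood above all Control plates and CA-ERBB2 plate 1 did not. *Rps6*, the phosphorylated target of S6 kinase, showed 260, 603 and 934 CPM against 249, 423 and 523 CPM, and *Rpsa*, which is also known as a laminin receptor, 689, 1781 and 2323 CPM against 590, 1119 and 1115 CPM. *Rps3*, at the mRNA entry of the small subunit, measured 778, 1928 and 1918 CPM against 743, 1211 and 1018 CPM. In all of these genes CA-ERBB2 plate 1 was closer to Control plate 1 than to the other CA-ERBB2 plates, and the lowest edgeR adjusted p among them was 0.921 (*Rpsa*).

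The next comparison was of single genes between genotypes, on counts summed per plate. In plate sums, the number of cells with a gene and its level per cell cannot be told apart. Of the 94 members, 90 had enough counts to be tested. With edgeR's quasi-likelihood test, 0 of these 90 passed an adjusted p of 0.05, and 0 had an unadjusted p under 0.05, beside 0.00467% and 5.16% of all 21416 genes tested. DESeq2 and limma also called 0 members, where DESeq2 called 235 and limma 0 of all 21416 genes. In 1 of 90 members (1.11%), *Rpl7l1*, all CA-ERBB2 plates lay above all Control plates, and in 0 members all lay below, where 4.20% and 4.88% of all genes did so. The share of members separated by genotype was therefore no larger than that of other genes.

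All the same, 86 of 90 log2 fold changes were above 0, with a median of 0.56, and 49.2% of all genes tested were above 0, with a median of −0.02. The members share their plates, so this is not 86 separate observations. The median was 0.60 for the 52 large and 0.50 for the 38 small subunit genes tested, and the median standard error of a gene was 0.60. Scaling changed the split. With plate totals in place of TMM factors, which lowered the median of all genes to −0.27, 58 of 90 members were above 0 and their median was 0.14, so that relative to all genes they stood 0.58 higher with TMM and 0.42 higher without. Single plates carried much of the shift: the median was 0.92 without CA-ERBB2 plate 1, 0.25 without CA-ERBB2 plate 3 and 0.28 without Control plate 1. Without CA-ERBB2 plate 1, 22 of 91 members had an unadjusted p under 0.05, all higher in CA-ERBB2, beside 8.60% of all genes. Without both plates numbered 1 it was 15 of 90, again all higher, beside 6.88% of all genes. The adjusted p passed for 0 members in either case.

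**Figure D2:**
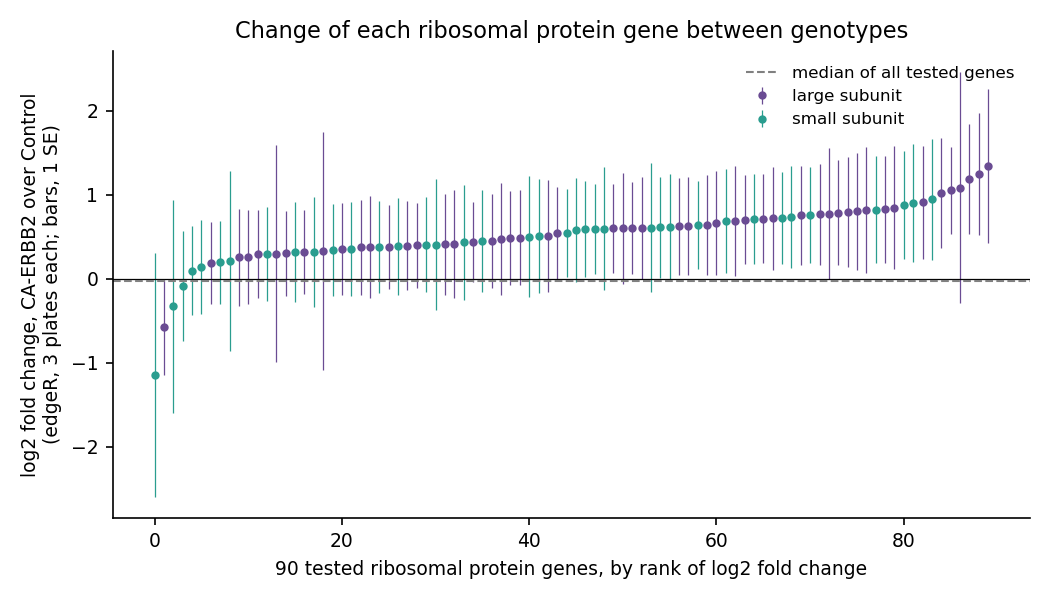
Log2 fold change of the 90 tested ribosomal protein genes (CA-ERBB2 over Control, edgeR on 3 plates each; bars, 1 SE) in rank order, with large and small subunit genes in different colours and the median of all tested genes as a dashed line. 86 points lie above 0, around a median of 0.56, and the median bar, of 0.60, is longer than the median change.

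The smallest unadjusted p-values among the members came from *Rpl7l1*, *Rpl35a*, *Rpl22l1*, *Rpl41* and *Rpl36al*, of which *Rpl7l1*, *Rpl22l1* and *Rpl36al* are paralogs of a standard gene. *Rpl7l1*, a less studied relative of *Rpl7*, stood at 58.0, 81.6 and 120 CPM in CA-ERBB2 and at 48.1, 37.2 and 39.7 CPM in Control. All 3 CA-ERBB2 plates were higher, by a log2 fold change of 1.05 ± 0.52 (SE), with an edgeR adjusted p of 0.911. *Rpl35a*, a large subunit protein, measured 42.2, 216 and 226 CPM against 43.4, 78.7 and 90.3 CPM, and here CA-ERBB2 plate 1 was the lowest of all plates. *Rpl41* measured 444, 2248 and 2069 CPM against 455, 856 and 1037 CPM, with the plates in the same pattern. Their log2 fold changes were 1.19 ± 0.66 and 1.02 ± 0.65 (SE), and their adjusted p-values 0.911 and 0.918. Below 0 lay *Rps23rg1* (−1.14 ± 1.45 SE), *Rpl13a* (−0.57 ± 0.57), *Rps10* (−0.33 ± 1.26) and *Rps4l* (−0.09 ± 0.65). The value of *Rps23rg1* rested on Control plate 3, with 7.04 CPM where the other plates had 0.546–1.67 CPM.

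Paralogs were compared with their standard gene as a ratio within each plate, which does not depend on scaling. Of the 8 pairs, 5 had at least 10 counts of each gene on every plate. The coding sequences of 4 of them (Gencode M21, GRCm38) show how far apart the partners are, here in 30 aligned bases with the mismatches in capitals.
Rpl22l1: aaGCCTaagaagTCCACCtGgaGgttTCAT
Rpl22: aaAAAAaagaagCAGGTTtTgaAgttCACC
Rps27l: atgccCctGgcTaGAgatctGTtAcaCccT
Rps27: atgccTctCgcAaAGgatctCCtTcaTccC
Rpl7l1: ttCcTTTGgtTccagAaaATcttCTgaaaa
Rpl7: ttGcCACTgtGccagGaaCCcttAAgaaaa
Rpl36al: atggtCaacgtAccAaaaacccgAAggacT
Rpl36a: atggtGaacgtGccTaaaacccgCCggacA
Over the whole aligned coding sequence the identity was 70.2%, 76.1%, 62.6% and 87.8%, with longest shared runs of 26, 11, 10 and 24 bases, so a read longer than these runs differs between the partners. The genes differ, however, in how much sequence they share with other genes. Of their 50-base windows *Rpl22l1* shared 81.9% and *Rpl22* 30.8%, *Rps27l* 49.0% and *Rps27* 100%, *Rpl7l1* 22.3% and *Rpl7* 77.6%, and both *Rpl36al* and *Rpl36a* 100%. *Rpl22l1* (chr3:28805436-28807424, plus strand) and *Rpl22* (chr4:152325742-152334071, plus strand) lie on different chromosomes, as do *Rps27l* (chr9:66946086-66949516) and *Rps27* (chr3:90212522-90213651).

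*Rpl22l1* was the paralog with the highest counts, and it exceeded its standard gene on every plate. RPL22 is dispensable in many cells, and its loss is known to raise its paralog. *Rpl22l1* stood at 281, 1635 and 1990 CPM on the CA-ERBB2 plates and at 253, 539 and 856 CPM on the Control plates (log2 fold change 1.25 ± 0.73 SE, edgeR adjusted p = 0.913). *Rpl22* stood at 199, 734 and 458 CPM and at 221, 389 and 464 CPM (0.37 ± 0.57 SE). The log2 ratio of *Rpl22l1* to *Rpl22* was 0.49, 1.16 and 2.12 in CA-ERBB2 and 0.19, 0.47 and 0.88 in Control. CA-ERBB2 plates 2 and 3 were above all Control plates, CA-ERBB2 plate 1 was not, and within each plate number CA-ERBB2 was higher. The means were 1.26 ± 0.82 and 0.51 ± 0.35 (SD, n = 3), a difference of 0.74 that did not pass the test (exact permutation test, p = 0.2, Benjamini-Hochberg adjusted over the 5 pairs 0.5) and that was 0.31 without CA-ERBB2 plate 3.

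The same pair was also counted cell by cell, a measure chosen after the plate ratios had been seen. Among cells that passed the filter on counts and mitochondrial share, 69.0%, 66.0% and 70.9% of the CA-ERBB2 cells had more *Rpl22l1* than *Rpl22* counts (40 of 58, 35 of 53 and 39 of 55 cells), and 55.2%, 61.1% and 51.1% of the Control cells (32 of 58, 22 of 36 and 23 of 45). The genotypes did not overlap, with means of 68.6 ± 2.45% and 55.8 ± 5.03% (SD, n = 3), at the smallest p the design allows (exact permutation test, p = 0.1). The exact binomial 95% intervals of single plates, which cover counting error, ran from 35.8–66.3% (Control plate 3) to 57.1–82.4% (CA-ERBB2 plate 3) and overlapped. Among cells with a count of either gene the shares were 70.2%, 71.4% and 90.7% against 60.4%, 71.0% and 60.5% (p = 0.2 by the same exact test).

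The remaining pairs showed no difference beyond the plates. *Rps27l*, a known p53 target, was near its standard gene, with log2 ratios to *Rps27* of −0.65, −0.28 and −0.67 in CA-ERBB2 and −1.03, −0.44 and −0.62 in Control (difference 0.17, exact permutation test, p = 0.6). *Rpl7l1* was far below *Rpl7*, with log2 ratios of −3.97, −4.95 and −4.80 against −4.38, −5.55 and −5.36 (difference 0.52, exact p = 0.4). *Rpl36al*, whose product differs little from that of *Rpl36a*, had log2 ratios of −5.29, −4.63 and −4.41 against −5.47, −4.98 and −5.80 (difference 0.64, exact p = 0.2), which turned to −0.29 with the mean over the cells that passed the filter. *Rps4l* had ratios to *Rps4x* that overlapped entirely (difference −0.16, exact p = 1). Of the paralogs known from other tissues, the muscle paralog *Rpl3l* had 481 counts in 4 cells, 470 of them on Control plate 1. The testis paralog *Rpl39l* had 85 counts in 6 cells. *Rpl10l*, also of testis, had 0 counts in the 177 cells of each genotype, which allows up to 3 counts at this depth. The fourth member without a test, *Rps12l1*, had 311 counts, 256 of them on Control plate 3.

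*Rps27rt*, a retrogene copy of *Rps27* without introns (chr9:114982366-114982739, minus strand), was the 1 gene of 55367 with a count in every cell of both genotypes. Which molecules these reads came from was not tested. The lowest cell had 6 counts, the median cell 122.5 and the highest 2073. In the 35 cells under 100000 counts it had 11 to 107 counts, with a median of 47, while *Rps27* itself had 0 counts in all 35. *Rpl32*, among the highest members, had a count in 3 of the 35 cells and *Actb*, a gene of all cells added for comparison after the values were seen, in 4. *Rps27rt* thus made up 95.7% of the ribosomal protein counts of the median cell among these 35, and 0.102% among the other 319. Its counts did not follow the total in the 35 cells (Spearman's rho −0.0429 across cells). In the 319 deeper cells they followed those of *Rps27* (rho 0.783 across cells), whose coding sequence is identical, so that every window of 50 bases is shared and reads of the coding part cannot be assigned. Leaving *Rps27rt* out moved the plate medians of the ribosomal protein share by little, from 3.605% to 3.6005% on Control plate 2. Between genotypes its level did not differ beyond the spread, at 25.4, 154 and 211 CPM in CA-ERBB2 and 32.9, 98.1 and 164 CPM in Control (log2 fold change 0.41 ± 0.78 SE).

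**Figure D3:**
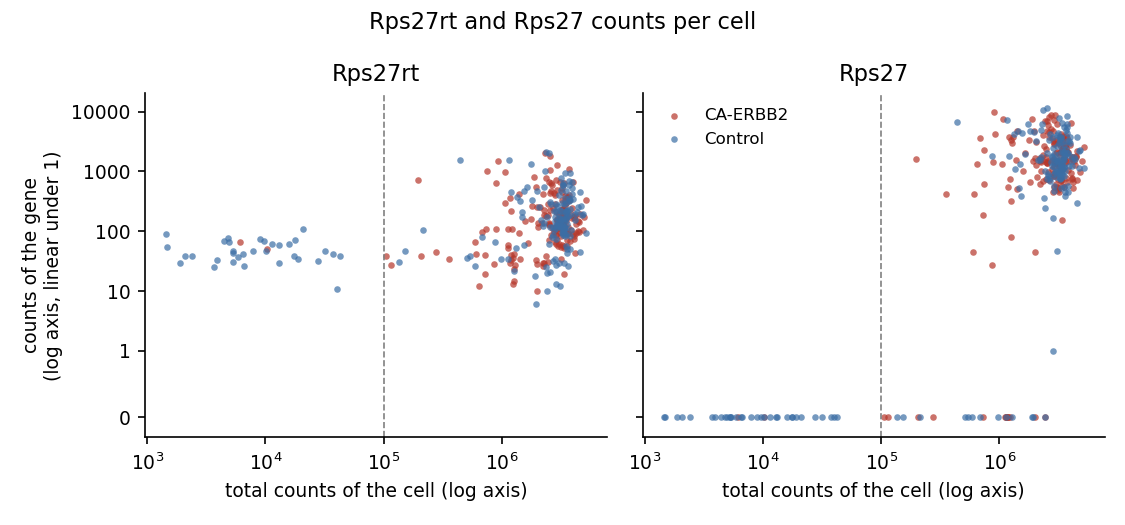
Counts of Rps27rt (left) and of Rps27 (right) in each cell of both genotypes against the total counts of the cell (log axes, the vertical axis linear under 1); the dashed line marks 100000 counts. Every cell has Rps27rt counts, from 6 to 2073, and to the left of the line Rps27 lies at 0 in all 35 cells.

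Many other members also share sequence with other genes. The median member shared 90.2% of the 50-base windows of its sequence with another annotated gene, 33 members shared over 99% and *Rps19bp1*, *Rpl39l* and *Rpl3l* were among those that shared none. Values of the shared ones are uncertain where the counting could not place a read. Members tested with over 99% shared had a median of 1572 CPM per kilobase of coding sequence, and those under 50% shared 1681. Across 83 members the rho of level per kilobase with the percent shared was −0.178. *Rpl24* and *Rps10*, which encode standard subunit proteins, stood at 0.687–2.16 CPM and 1.08–3.83 CPM. These are levels of 2.55 and 4.51 CPM per kilobase. They shared 99.3% and 92.4% of their windows, and each overlaps a read-through gene on its own strand in Gencode M21, *Rpl24* over 47.0% of its exon bases (*Gm28037*) and *Rps10* over 20.6% (*RPS10-NUDT3*). Of the other members with over 20% of such overlap, *Rpl13a* (35.4%) stood at 44.4–140 CPM and *Rpl36al* (24.5%) at 4.39–44.2 CPM. *Gm28037* had 0 counts on every plate, and *RPS10-NUDT3* was not among the names counted. The part of shared sequence or overlap in these levels was not tested. Among the lowest tested members were also the pseudogenes *Rpl32l* (0.437–1.80 CPM) and *Rpl6l* (1.15–2.53 CPM). The hyphenated pseudogenes together had counts equal to 2.43–2.66% of those of the members, with no difference between genotypes beyond the plates (exact permutation test, p = 0.5).

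The plates numbered 1 differed from the others in which members took the counts, and they did so in both genotypes. The share of each member in the ribosomal protein counts was compared between plate 1 and plates 2 and 3 of the same genotype, for the 83 tested members with a coding sequence. Short genes had a lower share on plate 1. For 11 genes under 300 coding bases the median log2 difference was −0.81 in CA-ERBB2 and −0.63 in Control. For 15 genes over 700 bases it was 0.37 and 0.35. For *Rpl22l1*, of 369 bases, the log2 difference was −1.02 in CA-ERBB2 and −0.40 in Control, and for *Rpl22*, of 387 bases, it was 0.12 and 0.08. Spearman's rho with coding length was 0.789 in CA-ERBB2 and 0.773 in Control, across genes, which are not independent replicates. Genes outside the list moved the same way: those under 500 coding bases took 10.4% and 10.9% of all counts on the plates numbered 1 and 14.3–14.8% on the others. The cause was not tested. Between genotypes, the members' log2 fold changes had a rho of −0.359 with coding length.

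**Figure D4:**
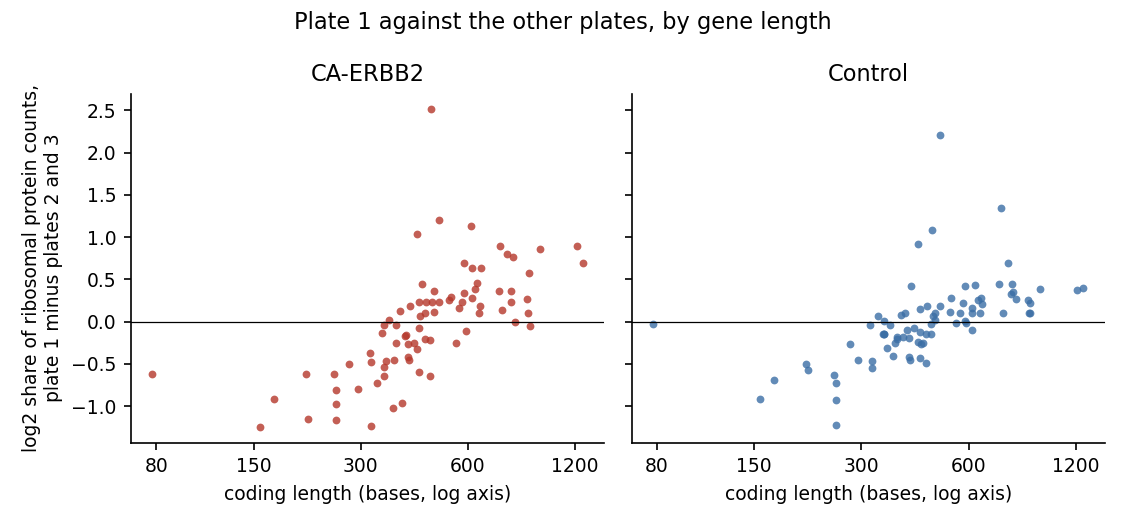
Difference in log2 share of ribosomal protein counts between plate 1 and plates 2 and 3 of the same genotype (vertical axis) against coding length in bases (log axis) for 83 members, CA-ERBB2 left and Control right. All 11 genes under 300 bases lie below 0 in both panels, and of 15 over 700 bases 13 lie above it in CA-ERBB2 and 15 in Control, with rho of 0.789 and 0.773.

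Genes that act with the ribosomal proteins were read from the same edgeR fit. *Rack1*, a scaffold on the small subunit, had a log2 fold change of 0.62 ± 0.56 (SE) and *Fau*, which encodes a ubiquitin-like fusion with a small subunit protein, one of 0.27 ± 0.56. Of 20 translation factors and other genes with such a tract, 0 were called, 14 had a log2 fold change above 0 and the median was 0.35. *Eef1a1*, the elongation factor that brings the tRNA, measured 2226, 2378 and 4246 CPM in CA-ERBB2 and 2200, 2942 and 3425 CPM in Control, and *Tpt1*, another abundant mRNA of this class, 661, 1047 and 1938 CPM against 750, 1059 and 1319 CPM. *Eef1g*, an exchange factor subunit, had its 3 CA-ERBB2 plates above the Control plates (1.00 ± 0.51 SE, adjusted p = 0.911). *Eif4a2*, a helicase of initiation, had them below (−0.47 ± 0.44 SE, adjusted p = 0.938).

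Of 31 ribosome biogenesis genes, 0 were called and 23 had a log2 fold change above 0, with a median of 0.41. In 6 of the 31 (19.4%) all CA-ERBB2 plates lay above all Control plates, beside 4.20% of all genes. These were *Ncl* (nucleolin), *Dkc1* (the pseudouridine synthase of small nucleolar particles), *Gar1*, *Rrp9*, *Tsr1* and *Mybbp1a*, of which *Dkc1* had the smallest p (1.08 ± 0.53 SE, adjusted p = 0.911). The 5 other than *Dkc1* are named because their plates did not overlap, after their values had been seen. *Polr1a*, the large subunit of RNA polymerase I, stood at −1.003 ± 0.83 (SE). Of 77 mitochondrial ribosomal protein genes tested, 0 were called, 62 lay above 0 with a median of 0.49, and *Mrpl10* had the smallest p (1.62 ± 0.59 SE, adjusted p = 0.911) and *Mrps5* the smallest below 0 (−0.61 ± 0.66 SE). The median of the mitochondrial list was thus near that of the cytosolic list. Of 13 regulators, *Eif4ebp1*, a brake on initiation that mTOR releases, measured 28.1, 86.1 and 219 CPM against 16.7, 11.03 and 39.7 CPM (2.31 ± 0.80 SE, adjusted p = 0.911), while *Rptor*, a subunit of the mTOR complex, stood at −0.67 ± 0.95 the median of the list was 0.08 and 0 were called. Of 9 p53 targets tested 0 were called and the median was 0.04, with *Cdkn1a*, the cell cycle inhibitor p21, at 0.85 ± 0.59 and *Mdm2* at −0.78 ± 0.71. With plate totals in place of TMM factors the medians of the translation factors, regulators and p53 targets turned to −0.04, −0.23 and −0.20, and those of biogenesis and mitochondrial genes were 0.11 and 0.10, beside −0.27 for all genes.

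*Spp1*, which encodes the secreted phosphoprotein osteopontin, took a large share of the counts in a minority of CA-ERBB2 cells, and within such a cell it lowers the share of every other gene. *Spp1* took 0.944%, 9.10% and 9.38% of the summed counts of the CA-ERBB2 plates and 0.0186%, 0.0511% and 0.109% of the Control plates. The median CA-ERBB2 cell had 0.000104%, 0.0215% and 0.0276%, and a count of *Spp1* was found in 35, 49 and 56 of the 59 cells on plates 1, 2 and 3. Over 10% of the counts were on *Spp1* in 2, 13 and 17 cells. Across the cells of a CA-ERBB2 plate, Spearman's rho between the ribosomal protein share and the *Spp1* share was −0.0638, 0.0932 and −0.225 (n = 59 cells on each plate; Pearson's r −0.155, 0.0175 and −0.203). With *Spp1* left out of the total the rho was 0.0258, 0.265 and 0.0233 (r −0.0386, 0.231 and −0.0173). These are weak relations of shares of 1 total. With *Spp1* in the total the sign of rho differed between plates, and with *Spp1* left out it was above 0 on all 3. That did not hold among the 35, 49 and 56 cells with a count of *Spp1*, where rho with *Spp1* left out was −0.0852, 0.337 and −0.0170.

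**Figure D5:**
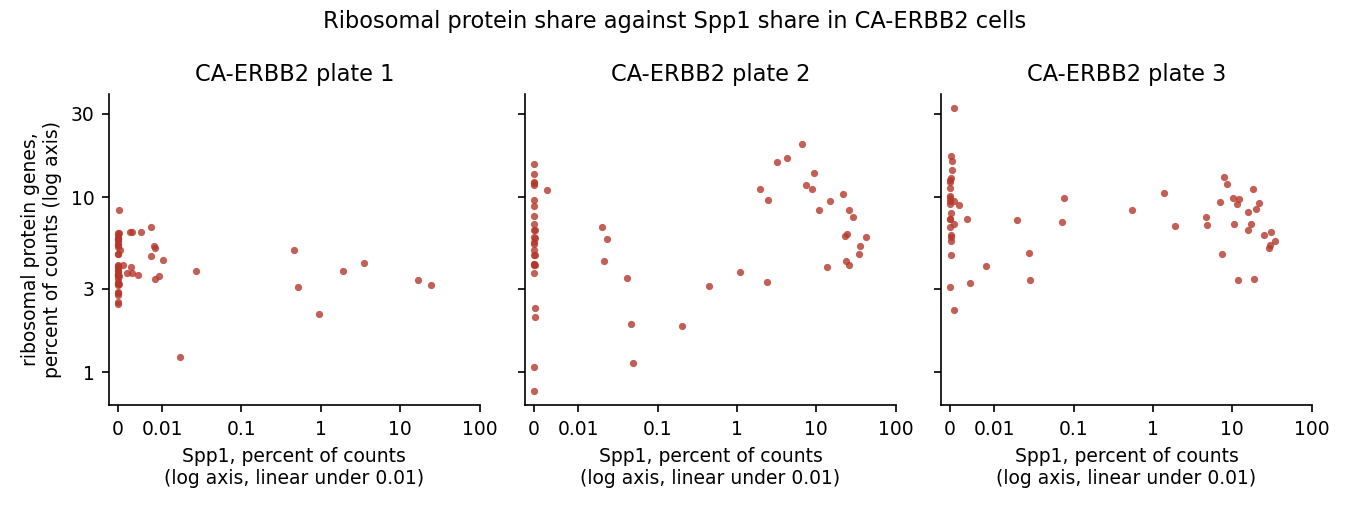
Percent of counts on ribosomal protein genes (log axis) against percent of counts on Spp1 (log axis, linear under 0.01) for the 59 cells of each CA-ERBB2 plate. Cells with over 10% of Spp1 number 2, 13 and 17 on plates 1, 2 and 3 and cells without it 24, 10 and 3, and the 5 cells with the most Spp1 lie between 4.74% and 6.33%.

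The cells with the most *Spp1* had ribosomal protein shares within the range of the other cells. The highest, on CA-ERBB2 plate 2, had 41.9% of its 3727340 counts on *Spp1* and 5.91% on ribosomal protein genes, which is the median of its plate. Counted without *Spp1*, its ribosomal protein share was 10.2%. The next 4 cells had 31.1–35.4% *Spp1* and 4.74–6.33% ribosomal protein counts, or 7.24–9.19% without *Spp1*. Over whole plates, taking *Spp1* out of the total raised the median share to 4.01%, 6.52% and 8.43% in CA-ERBB2, and left 4.19%, 3.61% and 5.98% in Control. The difference between genotypes grew from 1.22 to 1.73 percentage points and did not pass the test (exact permutation test, p = 0.3).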

How the data were processed

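Single GFP+ cells were captured in plates and their cDNA made with SMART-Seq Single PLUS. The authors trimmed reads with fastp, mapped them with STAR 2.7.6a to GRCm38 with Gencode M25 and counted them by strand on exons with featureCounts of Subread 2.0.1. They deposited counts per gene and cell, without normalization. Total counts per cell ran from 1443 to 5178221, and no cell was left out unless stated.

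Counts were summed over the 59 cells of each plate, the plate number being the replicate number in the sample name and taken as the FACS experiment. Sums were tested in edgeR 4.0.16 (TMM factors between 0.688 and 1.32, filterByExpr, quasi-likelihood test, Benjamini-Hochberg over 21416 genes, adjusted p under 0.05). For shares and ratios, an exact permutation test (two-sided) set 3 plates against 3. Paralog ratios used a prior of 0.5 counts. Alternatives were DESeq2 1.42.0, limma 3.58.1 on log2(CPM + 1), other scaling, filters and totals, a block for the plate number, and each plate left out. Leaving out wells A12 to D12, both plates numbered 1 or *Rps27rt* was chosen after seeing the data, as were the shares of cells with more *Rpl22l1* than *Rpl22*. The edgeR step was tested on simulated data.

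Coordinates and coding sequences came from Gencode M21 and starts from RefSeq, both on GRCm38. Named genes were paralog pairs and names that are not standard, the 5 highest and 5 lowest members by CPM, up to 5 members in each direction by unadjusted p, *Rplp0*, *Rplp1*, *Rplp2*, *Rpsa*, *Rpl5*, *Rpl11*, *Rps6*, *Rps3*, *Fau*, *Rack1*, *Eef1a1*, *Tpt1*, the gene with the smallest p in each direction of each related list, *Spp1* and *Erbb2*. Some genes that these rules take are not reported here. The members, lists and tests were chosen with earlier results of these data known. Binomial intervals and limits from a count of 0 cover counting error only.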

Additional observations from a re-analysis of the deposited data

How the results depend on the processing

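The count of ribosomal protein genes called was 0 under all 14 alternatives. Over all genes, DESeq2 called 235 of 21416, and 285 of 39201 were called without the filter on low counts. Each of the other alternatives called 0 to 2 genes in all, so that a count of 0 members says little there. At an unadjusted p under 0.05 the count of members was 0 with edgeR and 1 without the filter on low counts, 15 without both plates numbered 1, and 0 to 22 with each plate left out. Over all genes 1106 of 21416 had such a p with edgeR, 3790 of 39201 without the filter, 1434 of 20843 without both plates numbered 1, and 1038 to 1939 with each plate left out. Without wells A12 to D12, 24 wells in all, it was 0 of 90 members and 705 of 20001 genes. The difference in share kept its sign under all alternatives, between 0.352 and 2.14 percentage points with each plate left out. It was 0.474 percentage points with the cells filtered, 0.532 on the summed counts of the plates and 1.10 without wells A12 to D12, beside 1.22 in the main setting. The log2 ratio of *Rpl22l1* to *Rpl22* kept its sign as well, from 0.31 to 1.12 with each plate left out, and the ratio of large to small subunit counts did not, from −0.0181 to 0.0582. With the mean over filtered cells, the differences of *Rps27l* to *Rps27* and of *Rpl36al* to *Rpl36a* turned to −0.48 and −0.29. With each plate left out, that of *Rps27l* lay between −0.00129 (without Control plate 1) and 0.29, and that of *Rps4l* to *Rps4x* between −0.47 and 0.43 (0.00957 without CA-ERBB2 plate 2 and 0.43 without Control plate 2, where the sign turned). The mean rho with the *Spp1* share went from −0.0653 to 0.105 with *Spp1* out of the total. The median log2 fold change of the members was highest with cells weighted equally in limma, 1.11. The causes were not tested.

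Plates of the same number were not shown to be paired throughout. The correlation of their deviations from the genotype means was 0.246, 0.0624 and 0.0393 for numbers 1, 2 and 3. The plates numbered 1 had −0.129 to −0.0898 with plates of the other genotype and another number, so they resembled each other most. CA-ERBB2 plate 3 correlated best with Control plate 2 (0.0512). With the plate number as a block, 0 of 90 members were called and 1 had an unadjusted p under 0.05, beside 1 and 787 of all 21416 genes. The median log2 fold change of the members was 0.45. The paired sign test gave p = 0.5 for the share, 0.25 for *Rpl22l1* to *Rpl22* and 0.75 for the subunits (exact permutation, where 0.25 is the smallest possible).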
